A study of Mus musculus with 48 samples.

Results

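Solute carriers are membrane proteins that move nutrients, ions, metals and metabolites across the plasma membrane and the membranes of organelles. The Slc probes of a mouse whole-lung array were described in A/J and C57BL/6J (B6) mice treated with welding fume or saline. They were every probe whose annotated symbol is Slc, a family number, a letter and a member number. Slc7a11, Slc11a1, Slc11a2, Slc26a4 and Slc40a1 were left out, which removed 7 probes. A probe was kept if its detection p, the chance of its signal arising from background, was under 0.01 on at least 4 of the 24 arrays of a time point. Of 24613 probes on the array, 402 carried such a symbol (308 genes, 48 families), and 179 probes for 165 genes in 43 families were kept. At each time point 171 of them could be tested, 163 at both, and 134 were detected on all 48 arrays. Of the 223 Slc probes not kept, 207 were detected on no array. Around the detection limit, Slc39a14 was seen on 3 arrays and not kept, while a probe of Slc10a7 and that of Slc2a9 were seen on 4 and kept.

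Male A/J mice, a strain prone to lung tumours, and male B6 mice, a resistant strain, were 4 weeks old when bought. They received 4 doses of 5 mg/kg by pharyngeal aspiration of gas metal arc mild steel fume (GMA-MS, mainly iron with manganese), of gas metal arc stainless steel fume (GMA-SS, iron, chromium, manganese and some nickel), or of the saline vehicle (sham). Whole lungs were taken 4 or 16 weeks after the last dose, which gave 12 groups of 4 arrays on 8 beadchips, and each beadchip carried 1 array from every group at that time. Each group held the same position on every beadchip, B6 at A to C and A/J at E to G. Strain or exposure and array position therefore cannot be told apart. Whole lung mixes all cell types, so fewer cells of a type and less RNA per cell cannot be told apart. The labels do not tie arrays to animals, and p-values measure the spread between arrays. Values below are normalized log2 intensities, differences are log2 differences, and errors of group means are SD over 4 arrays. A probe was called at an adjusted p under 0.05 (limma, Benjamini-Hochberg over all 11624 probes tested at 4 weeks or 11881 at 16 weeks). Each array detected 9990 to 11421 probes at 4 weeks and 10594 to 11567 at 16 weeks.

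The Slc families are numbered by sequence and differ in what they carry. Families 1, 6, 7 and 38 take up amino acids, family 25 serves the inner mitochondrial membrane, family 35 brings nucleotide sugars into the Golgi apparatus and the endoplasmic reticulum, and families 30 and 39 move zinc and related metals out of and into the cytosol. In the lung such carriers supply phosphate and choline for surfactant, clear serotonin from blood and handle the metal of inhaled particles. Slc30a1, a plasma membrane zinc exporter, and Slc39a8, an importer of zinc, manganese, cadmium and iron, stand closest to the metals of these fumes, so the 100 bases before their starts are shown (RefSeq, build GRCm38.p6, chr1:191906681-191906780 and chr3:135825557-135825656, both on the plus strand). Capitals mark a metal response element, the motif bound by metal-responsive transcription factor Mtf1, searched as TGCACNC or TGCGCNC on both strands and found here on the minus strand, 43 bases before the start of Slc30a1 and 19 before that of Slc39a8. A second start listed for Slc39a8 had no match in its window.
Slc30a1: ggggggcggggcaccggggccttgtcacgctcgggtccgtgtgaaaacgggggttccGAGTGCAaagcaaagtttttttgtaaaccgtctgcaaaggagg
Slc39a8: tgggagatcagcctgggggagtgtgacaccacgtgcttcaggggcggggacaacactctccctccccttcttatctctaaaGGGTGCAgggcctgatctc
The motif stood in 3523 of 32851 promoters of this length (10.7%), in 29 of 179 promoters of the kept Slc genes (16.2%; 130 of 165 genes had a promoter) and in 6 of 18 promoters of metal and heme carriers (33.3%), those of Slc30a1, Slc30a4, Slc30a5, Slc39a8, Slc39a11 and Slc41a2. A match is a match of letters only.

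The first comparison asked how Slc expression differed between A/J and B6 lungs that had received saline. At 4 weeks 38 of 171 Slc probes were called (22.2%, against 18.2% of all probes), 26 higher and 12 lower in A/J. At 16 weeks 50 of 171 were called (29.2%, against 26.8% of all probes), 35 higher and 15 lower in A/J. These shares lay near those of the whole array. By direction, 15.2% of Slc probes were higher and 7.02% lower at 4 weeks, against 8.59% and 9.62% of all probes, and 20.5% were higher and 8.77% lower at 16 weeks, against 14.4% and 12.4%. The median difference of the Slc probes was 0.08 and 0.04, against 0.03 and 0.02 over all probes. With the beadchip as a block the 4 weeks count was 66 (38.6%, against 30.8% of all probes) and included all 38.

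The split between higher and lower depended on scaling. Cyclic loess gave 8 higher and 8 lower at 4 weeks and 18 higher and 12 lower at 16 weeks. Scaling to the median of detected probes gave 9 higher and 2 lower at 4 weeks, but 11 higher and 18 lower at 16 weeks, where it moved the median of all probes to -0.15 and turned the sign of 18 of the 50 calls, all of them probes higher in A/J and dim, with no group mean above 8.55. Those genes were Slc6a4, Slc7a8, Slc12a4, Slc12a8, Slc13a2, Slc17a5, Slc23a3, Slc24a4, Slc25a29, Slc25a35, Slc27a6, Slc35d1, Slc35d2, Slc38a7, Slc38a10, Slc41a2, Slc45a3 and Slc66a1, and their 16 weeks direction below was the opposite under that scaling. Of the sham calls, 15 of 38 at 4 weeks and 28 of 50 at 16 weeks were also calls under cyclic loess, in the same direction. Under median scaling 10 and 24 were calls. The 24 were counted in either direction, so they may include probes whose sign had turned. Among the genes described in most detail, the 4 weeks calls of Slc7a8, Slc16a10, Slc23a3, Slc27a6, Slc30a1 and Slc35f3 were lost under both, that of Slc25a10 under loess, and those of Slc5a12, Slc25a47, Slc35a5, Slc38a2 and Slc48a1 under median scaling. At 16 weeks those of Slc6a4, Slc7a8, Slc12a8 and Slc23a3 were lost under loess and that of Slc35f3 under median scaling.

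At both times 29 of 163 probes were called in the same direction (17.8%, against 14.6% of all probes), 20 higher (6.64% of all probes were) and 9 lower (7.91%), and none was called in opposite directions. Of the 26 probes called once and tested at the other time, 23 had the same sign there, a count not made over all probes. The change of the strain gap between the times was called for none of 179 probes (limma, 0.0165% of all probes), with 11 at an unadjusted p under 0.05 (4.41% of all probes) and Slc41a3 first (-0.38, SE 0.11, adjusted p = 0.502).

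**Figure D1:**
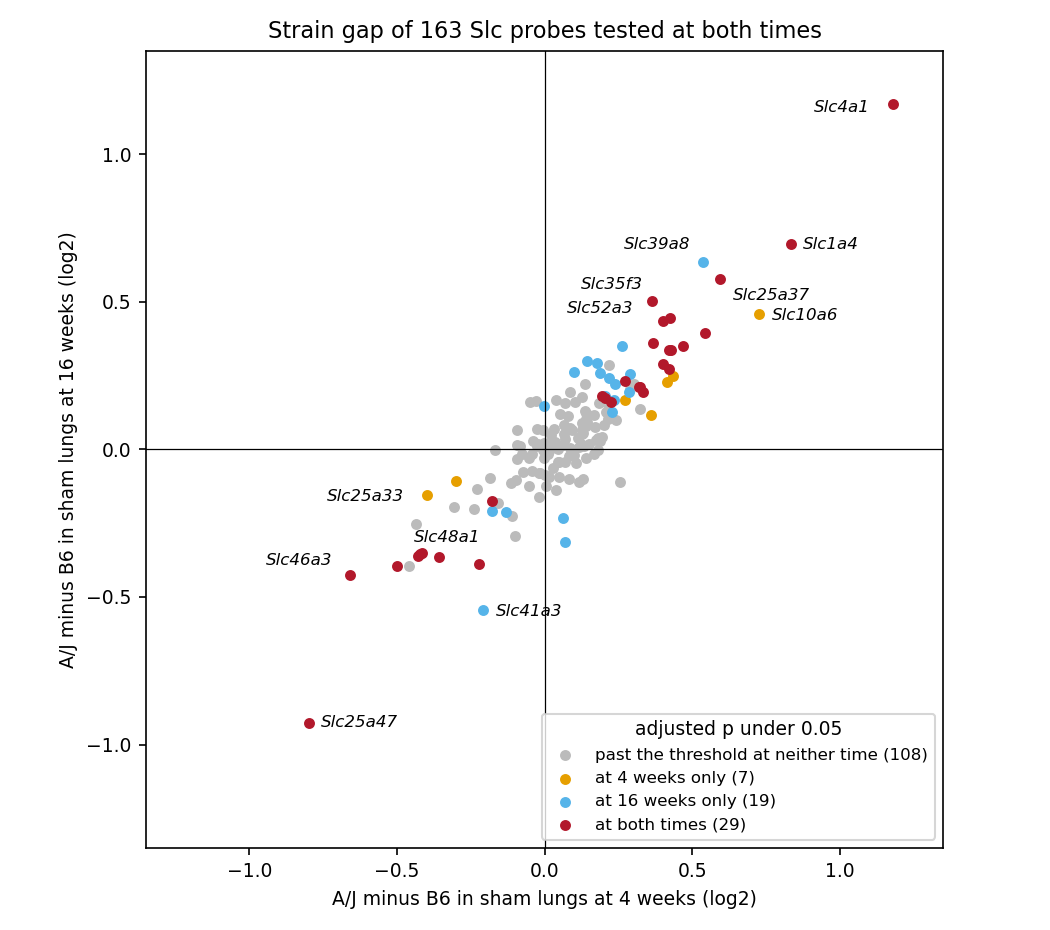
A/J minus B6 log2 difference in sham lungs at 4 weeks (x axis) and 16 weeks (y axis), 1 point for each of the 163 Slc probes tested at both times, coloured by when the adjusted p was under 0.05. The 29 probes called at both times lie in the lower left (9) and upper right (20) quadrants, with Slc4a1 at 1.18 and 1.17 and Slc25a47 at -0.80 and -0.93 at the ends.

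Among the ion carriers, Slc4a1 encodes band 3, the chloride and bicarbonate exchanger of the red cell membrane. It had 10.12, 11.06, 10.97 and 11.08 in the 4 A/J sham lungs at 4 weeks, against 9.92, 9.30, 9.62 and 9.68 in B6 sham lungs. At 16 weeks it had 10.60, 10.36, 10.84 and 9.88 in A/J and 8.88, 9.59, 8.96 and 9.58 in B6. Every A/J array lay above every B6 array at both times. The difference was 1.18 (SE 0.22, 2.26-fold, adjusted p = 0.000443) at 4 weeks and 1.17 (SE 0.21, 2.25-fold, adjusted p = 0.000212) at 16 weeks.

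Slc25a37, or mitoferrin-1, brings iron into mitochondria, above all in maturing red cells. It averaged 10.9 ± 0.29 in A/J and 10.3 ± 0.12 in B6 at 4 weeks (0.59, SE 0.17, adjusted p = 0.0154), and 10.2 ± 0.15 in A/J and 9.64 ± 0.13 in B6 at 16 weeks (0.58, SE 0.12, adjusted p = 0.000924). The groups did not overlap. The 4 weeks call was lost without A/J array 2 (0.53, adjusted p = 0.0537) or A/J array 4 (0.52, adjusted p = 0.0564). Its broader paralogue Slc25a28, mitoferrin-2, had -0.04 and -0.08 and was not called. Neither erythroid marker that could be tested was called. Hba-a1, an alpha globin, differed by 0.02 at both times, at the top of the intensity scale, where quantile scaling gave it the same value on every A/J sham array at 16 weeks. Alas2, the erythroid enzyme that starts heme synthesis, had 0.27 and 0.14 (adjusted p = 0.656 and 0.573), and the summed level of the pair was 16.10 to 16.27 in A/J and 16.09 to 16.19 in B6 sham lungs at 4 weeks, and 15.73 to 15.77 in A/J and 15.67 to 15.76 in B6 at 16 weeks. The part of red cells in the Slc4a1 and Slc25a37 differences was not tested beyond these values.

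The other ion carriers differed less. With Slc4a1 counted, 3 of 15 ion carrier probes at 4 weeks and 5 of 17 at 16 weeks were called, all higher in A/J. Of all probes 18.2% and 26.8% were called, 8.59% and 14.4% higher. Under median scaling the 16 weeks sign of Slc12a4, Slc12a8 and Slc24a4 turned. Slc8a1, the sodium calcium exchanger, was higher at 4 weeks (0.36, SE 0.09, adjusted p = 0.00448) and had 0.12 at 16 weeks (adjusted p = 0.257). Slc24a4, a potassium-dependent relative, was higher at both times (0.20 and 0.18). In family 12, the cation chloride cotransporters, none of 3 probes was called at 4 weeks. At 16 weeks 3 of 4 were higher (14.4% of all probes were), namely Slc12a4 (0.17), Slc12a7 (0.26) and Slc12a8 (0.22). Slc12a8 was detected on 2 of 4 A/J and 1 of 4 B6 arrays, and 1 A/J array was at 8.17 and the others at 7.77 to 7.83, against 7.68 ± 0.036 in B6.

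**Figure D2:**
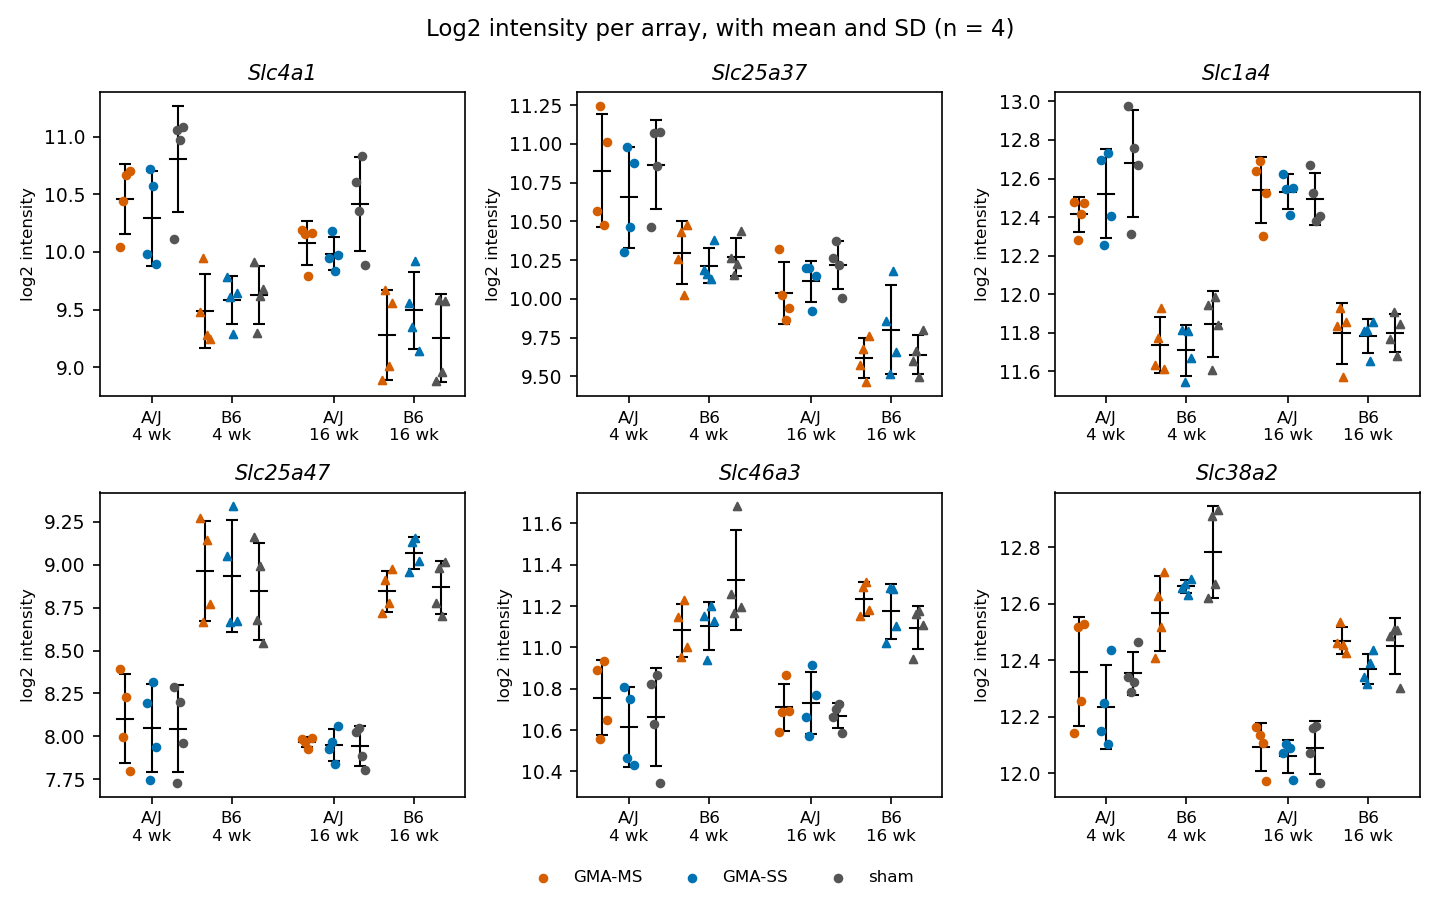
Normalized log2 intensity of Slc4a1, Slc25a37, Slc1a4, Slc25a47, Slc46a3 and Slc38a2 on each array (points), with mean and SD, by strain, time and exposure. In sham lungs the A/J points lie above the B6 points for the first 3 genes and below them for Slc25a47, Slc46a3 and Slc38a2.

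Classes were set by family number, so single members can carry other cargo, as Slc6a4 does. Amino acid carriers made up 28 probes at 4 weeks, of which 4 were higher and 4 lower in A/J (8.59% and 9.62% of all probes were). Their 29 probes at 16 weeks held 9 higher and 4 lower (14.4% and 12.4% of all probes). Slc1a4, which exchanges alanine, serine and cysteine, had 12.98, 12.31, 12.76 and 12.67 in A/J and 11.94, 11.61, 11.99 and 11.84 in B6 sham lungs at 4 weeks. At 16 weeks it had 12.67, 12.52, 12.38 and 12.40 in A/J and 11.77, 11.91, 11.68 and 11.85 in B6. The strains did not overlap, and the difference was 0.83 (SE 0.13, 1.78-fold, adjusted p = 2.82e-05) and 0.69 (SE 0.09, 1.62-fold, adjusted p = 1.89e-06). Both probes of Slc1a1, a glutamate and cysteine transporter, were also higher in A/J, by 0.42 and 0.40 at 4 weeks and by 0.34 and 0.29 at 16 weeks. Thus 3 of the 5 family 1 probes were higher at both times (6.64% of all probes were).

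Family 38, sodium-coupled neutral amino acid carriers, held calls in both directions. Slc38a2, the amino acid starvation-responsive uptake carrier, had 12.34, 12.29, 12.32 and 12.46 in A/J and 12.62, 12.91, 12.67 and 12.93 in B6 at 4 weeks, and 12.07, 12.16, 12.17 and 11.96 in A/J and 12.49, 12.51, 12.51 and 12.30 in B6 at 16 weeks. It was lower in A/J without overlap, with differences of -0.43 (SE 0.09, adjusted p = 0.00199) and -0.36 (SE 0.06, adjusted p = 3.23e-05). Slc38a5, a glutamine carrier (-0.22 and -0.39), and Slc38a9, the lysosomal arginine sensor upstream of mTORC1 (-0.41 and -0.35), were lower at both times as well. Slc38a7, a lysosomal glutamine exporter (0.18), and Slc38a10 (0.13) were higher at 16 weeks, with 0.21 and 0.23 and no call at 4 weeks.

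Slc7a8, a light chain that carries neutral amino acids, had 8.33 ± 0.10 in A/J and 7.86 ± 0.056 in B6 at 4 weeks, and 7.97 ± 0.042 in A/J and 7.62 ± 0.060 in B6 at 16 weeks. It was not well above background in B6, so it was at least 1.38-fold and at least 1.27-fold higher in A/J (adjusted p = 0.000152 and 2.3e-05). Such bounds set the brighter group's mean against the higher, on each array of the dim group, of the lowest signal called detected and the probe's own signal, which for Slc7a8 was its own signal. Under median scaling the 16 weeks difference of Slc7a8 had the opposite sign, so its 16 weeks bound does not hold under every scaling. Slc6a4, the serotonin transporter, which lung endothelium uses to clear serotonin, was higher at 16 weeks (0.22, SE 0.05, adjusted p = 0.00077), with 0.24 at 4 weeks (adjusted p = 0.0681). Slc66a2 (0.35) and Slc66a1, a lysosomal exporter of cationic amino acids (0.20), were higher at 16 weeks. Slc36a2 (-0.31) was lower at 16 weeks, and Slc43a3 (-0.30), counted in this class by its family number only, was lower at 4 weeks.

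Of the mitochondrial carriers, 5 of 30 probes were higher and 2 lower in A/J at 4 weeks, and 6 of 32 were higher and 3 lower at 16 weeks. The shares of all probes were 8.59% higher and 9.62% lower at 4 weeks, and 14.4% and 12.4% at 16 weeks. Slc25a47, known mainly as a mitochondrial carrier of liver and detected on 2 of the 4 A/J sham arrays at 4 weeks, had 8.29, 7.73, 8.20 and 7.96 in A/J and 9.16, 8.68, 8.995 and 8.55 in B6 sham lungs at 4 weeks. At 16 weeks it had 8.03, 8.05, 7.89 and 7.80 in A/J and 8.77, 8.98, 8.70 and 9.01 in B6. No A/J array reached the lowest B6 array, and the difference was -0.80 (SE 0.19, adjusted p = 0.00304) and -0.93 (SE 0.08, adjusted p = 2.06e-09). Slc25a10, the dicarboxylate carrier (0.43 and 0.44), Slc25a39, an importer of glutathione (0.20 and 0.17), Slc25a29, a carrier of basic amino acids (0.32 and 0.21), and Slc25a35 (0.33 and 0.20) were higher at both times. Slc25a33, a pyrimidine nucleotide carrier, was lower at 4 weeks (-0.40, adjusted p = 0.000237) and had -0.15 at 16 weeks (adjusted p = 0.124).

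The nucleotide sugar carriers of family 35 gave 5 higher and 2 lower calls at each time, of 22 probes at 4 weeks and 23 at 16 weeks. Of all probes 8.59% were higher and 9.62% lower at 4 weeks, and 14.4% and 12.4% at 16 weeks. At both times 4 were higher and 2 lower (6.64% and 7.91% of all probes were). Slc35a1, which supplies CMP-sialic acid to the Golgi, was higher (0.37, SE 0.08, adjusted p = 0.000993, and 0.36, SE 0.06, adjusted p = 5.98e-05), with 12.01 ± 0.11 in A/J and 11.6 ± 0.075 in B6 at 4 weeks. Slc35f3 (0.36 and 0.50), Slc35d1, a carrier of UDP sugars (0.42 and 0.27), and Slc35d2 (0.22 and 0.16) were higher. Slc35a5 was lower (-0.50, SE 0.07, adjusted p = 1.93e-05, and -0.40, SE 0.05, adjusted p = 6.41e-07), with 7.96, 8.14, 7.96 and 8.12 in A/J and 8.38, 8.65, 8.60 and 8.54 in B6 at 4 weeks. Slc35c1, which supplies GDP-fucose, was also lower (-0.42 and -0.36). The probes of Slc35a1 and Slc35c1 thus differed in opposite directions between the strains. Slc35c2 was not called (-0.05 at 4 weeks, 0.16 and 0.05 on its probes at 16 weeks). Transport and glycans were not measured.

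**Figure D3:**
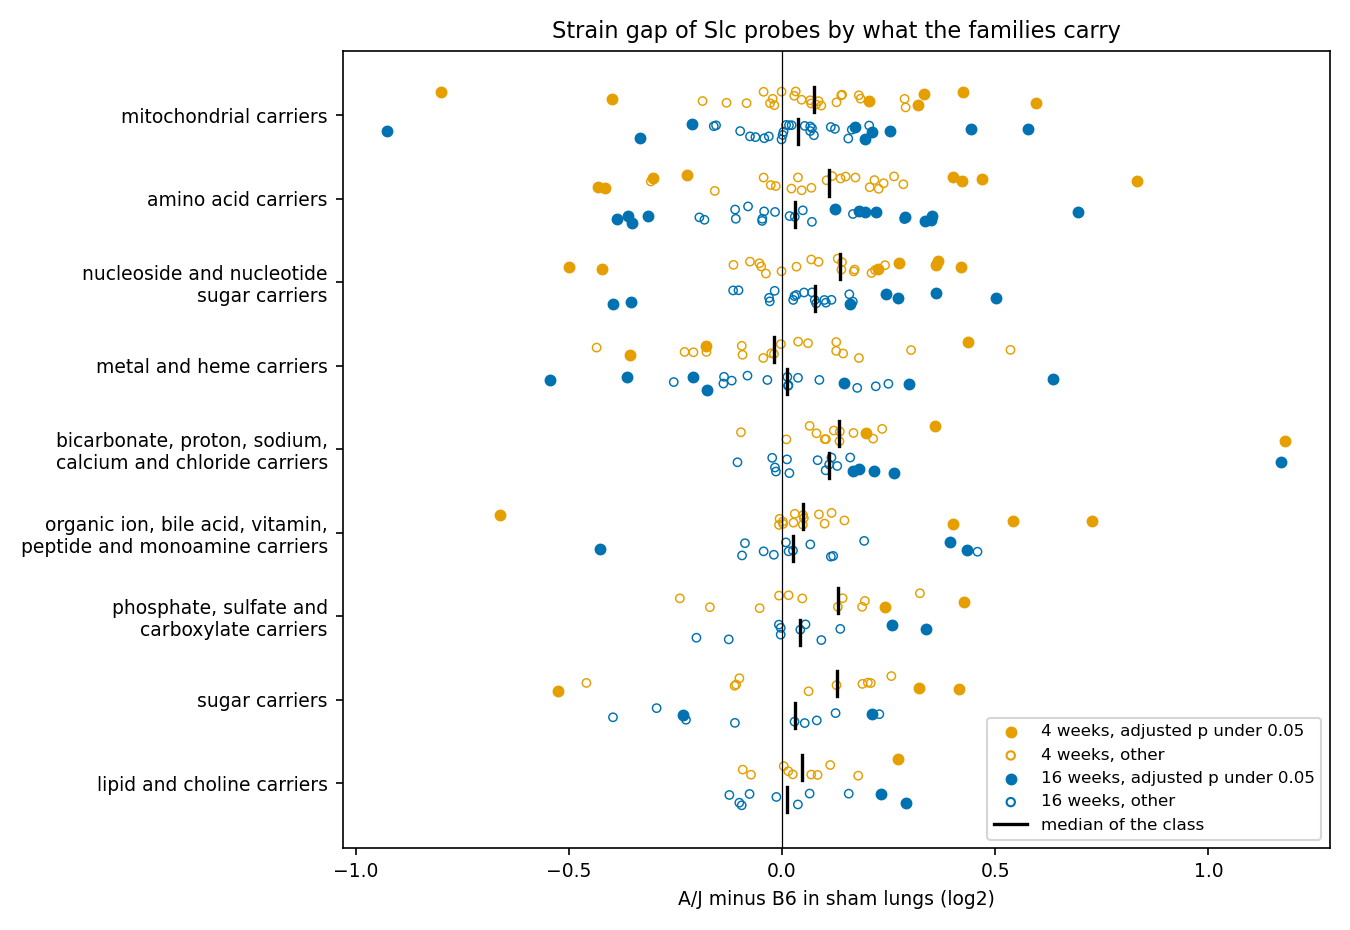
A/J minus B6 log2 difference of each Slc probe in sham lungs (x axis), by class of cargo, at 4 weeks (orange) and 16 weeks (blue); filled points had an adjusted p under 0.05 and bars mark the class median. Called probes lie on both sides of 0 in the amino acid, mitochondrial, nucleotide sugar and metal classes, and on the right only in the ion, phosphate and lipid classes. In the ion, phosphate and lipid classes, median scaling turned the 16 weeks sign of Slc12a4, Slc12a8, Slc13a2, Slc17a5, Slc24a4 and Slc27a6.

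Among carriers of vitamins, bile acids and other organic ions, 3 were higher and 1 lower of 17 at 4 weeks (8.59% and 9.62% of all probes were). At 16 weeks 2 were higher and 1 lower of 15 (14.4% and 12.4% of all probes). Slc52a3, a riboflavin transporter, had 11.45, 11.43, 11.47 and 11.55 in A/J and 11.11, 11.002, 11.10 and 11.09 in B6 at 4 weeks (0.40, SE 0.05, adjusted p = 2.92e-06) and a difference of 0.43 (adjusted p = 3.23e-05) at 16 weeks. Slc46a3, a carrier of the lysosomal membrane, had 10.82, 10.63, 10.86 and 10.34 in A/J and 11.26, 11.16, 11.68 and 11.19 in B6 at 4 weeks (-0.66, SE 0.13, adjusted p = 0.000576). It had 10.66, 10.70, 10.72 and 10.59 in A/J and 10.94, 11.16, 11.17 and 11.11 in B6 at 16 weeks (-0.43, SE 0.08, adjusted p = 0.000188), again without overlap. Slc23a3, an orphan relative of the vitamin C carriers, was higher (0.54 and 0.39), and at 4 weeks its call was lost without any of 4 arrays, A/J 1 and 3 and B6 3 and 4 (0.44 to 0.51, adjusted p = 0.0722 to 0.110), and under cyclic loess, median scaling or no filter on detection.

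Slc10a6, a carrier of sulfated steroids, had 10.22, 11.25, 9.99 and 10.66 in A/J and 9.64, 10.24, 9.45 and 9.89 in B6 at 4 weeks. The strains overlapped, but A/J was above B6 on 4 of 4 beadchips, and the difference was 0.73 (SE 0.21, adjusted p = 0.0161). That call was lost without A/J array 2 (0.49, adjusted p = 0.0769), B6 array 1 (0.67, adjusted p = 0.0504) or B6 array 3 (0.61, adjusted p = 0.0689), and with only the compared groups in the fit. At 16 weeks it had 0.46 (adjusted p = 0.0698, or 0.00770 with the beadchip as a block).

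In the phosphate, sulfate and carboxylate class Slc13a2, a citrate and dicarboxylate carrier detected on 1 of 4 B6 sham arrays at each time, was higher in A/J at both times (0.43 and 0.34), Slc16a10, a carrier of aromatic amino acids detected on 3 of 4 A/J and 1 of 4 B6 arrays, at 4 weeks (0.24), and Slc17a5, the lysosomal sialic acid exporter, at 16 weeks (0.26). Slc34a2, the phosphate carrier of alveolar type 2 cells, had 11.62, 11.81, 11.60 and 11.94 in A/J and 11.65, 11.56, 11.74 and 11.96 in B6 at 4 weeks. The strains overlapped and it was not called (0.02 and -0.01). Of 5 markers of the same cells, Sftpa1, a surfactant protein, was lower in A/J at both times and Lamp3 only at 4 weeks. The others were not called. Among lipid carriers Slc27a6, a fatty acid carrier, was detected on 2 of 4 A/J sham arrays and not well above background in B6 at either time. It was at least 1.19-fold and at least 1.16-fold higher in A/J. Under median scaling its 16 weeks difference had the opposite sign, so the 16 weeks bound does not hold under every scaling. Slc44a4 was higher at 16 weeks (0.29), a call lost without A/J array 4 (0.21, adjusted p = 0.0532). Among sugar and related carriers Slc45a3 was higher at both times (0.32 and 0.21), Slc5a9 at 4 weeks (0.41, with the probe detected on 3 of 4 A/J and 1 of 4 B6 arrays), and the monocarboxylate carriers Slc5a12 and Slc5a8, not well above background in A/J, were each at least 1.17-fold lower, Slc5a12 at 4 weeks and Slc5a8 at 16 weeks. In the sham comparison no probe of families 2, 19, 20, 22, 26, 29 or 37 was called at either time. Slc2a1, the glucose transporter GLUT1, had -0.11 and -0.23, and Slc2a6 had -0.46 and -0.40.

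The metal and heme carriers are nearest to what the fumes deliver. In sham lungs 1 of 21 probes was higher and 2 lower in A/J at 4 weeks (8.59% and 9.62% of all probes were). At 16 weeks 3 of 21 were higher and 4 lower (14.4% and 12.4% of all probes). Slc39a8 had 9.56, 9.08, 9.61 and 8.79 in A/J and 9.004, 8.51, 8.97 and 8.42 in B6 at 4 weeks, and 10.31, 10.21, 10.72 and 9.96 in A/J and 9.97, 9.52, 9.43 and 9.75 in B6 at 16 weeks. Its A/J array was above the B6 array of the same beadchip on 4 of 4 beadchips at each time. The difference was 0.54 (SE 0.25, adjusted p = 0.164, or 0.00015 with the beadchip as a block) at 4 weeks and 0.63 (SE 0.15, adjusted p = 0.00356) at 16 weeks. A second, dimmer probe of Slc39a8 had 0.30 and 0.22 and was not called, and its 16 weeks value was -0.50 under median scaling.

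Slc30a1 had 9.08, 9.45, 9.01 and 9.44 in A/J and 8.78, 8.79, 8.80 and 8.88 in B6 at 4 weeks. It was higher in A/J without overlap (0.44, SE 0.13, adjusted p = 0.0223), a call lost without A/J array 2 (0.37, adjusted p = 0.0820), A/J array 4 (0.37, adjusted p = 0.0830) or B6 array 1 (0.43, adjusted p = 0.0515), and under cyclic loess or median scaling. At 16 weeks it had 0.25 (adjusted p = 0.0651, or 0.0227 with the beadchip as a block).

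Slc48a1, which moves heme out of endosomes and lysosomes, had 11.73, 11.67, 11.69 and 11.87 in A/J and 12.005, 12.18, 11.91 and 12.29 in B6 at 4 weeks, and 11.33, 11.29, 11.41 and 11.26 in A/J and 11.65, 11.71, 11.69 and 11.69 in B6 at 16 weeks. It was lower in A/J by 0.36 at both times (SE 0.10 and 0.07, adjusted p = 0.0129 and 0.000381), without overlap, and the 4 weeks call was lost without B6 array 4 (-0.29, adjusted p = 0.0602) and under median scaling. Slc30a7, which loads zinc into the Golgi, was lower at both times (-0.18 and -0.17). At 16 weeks Slc41a3, a magnesium carrier (-0.54, SE 0.08, adjusted p = 1.71e-05), and 1 probe of Slc31a1, the copper importer (-0.21, adjusted p = 0.0121), were lower, while the other Slc31a1 probe had 0.02. Slc39a7, which releases zinc from the endoplasmic reticulum (0.30), and Slc41a2 (0.15) were higher at 16 weeks.

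**Figure D4:**
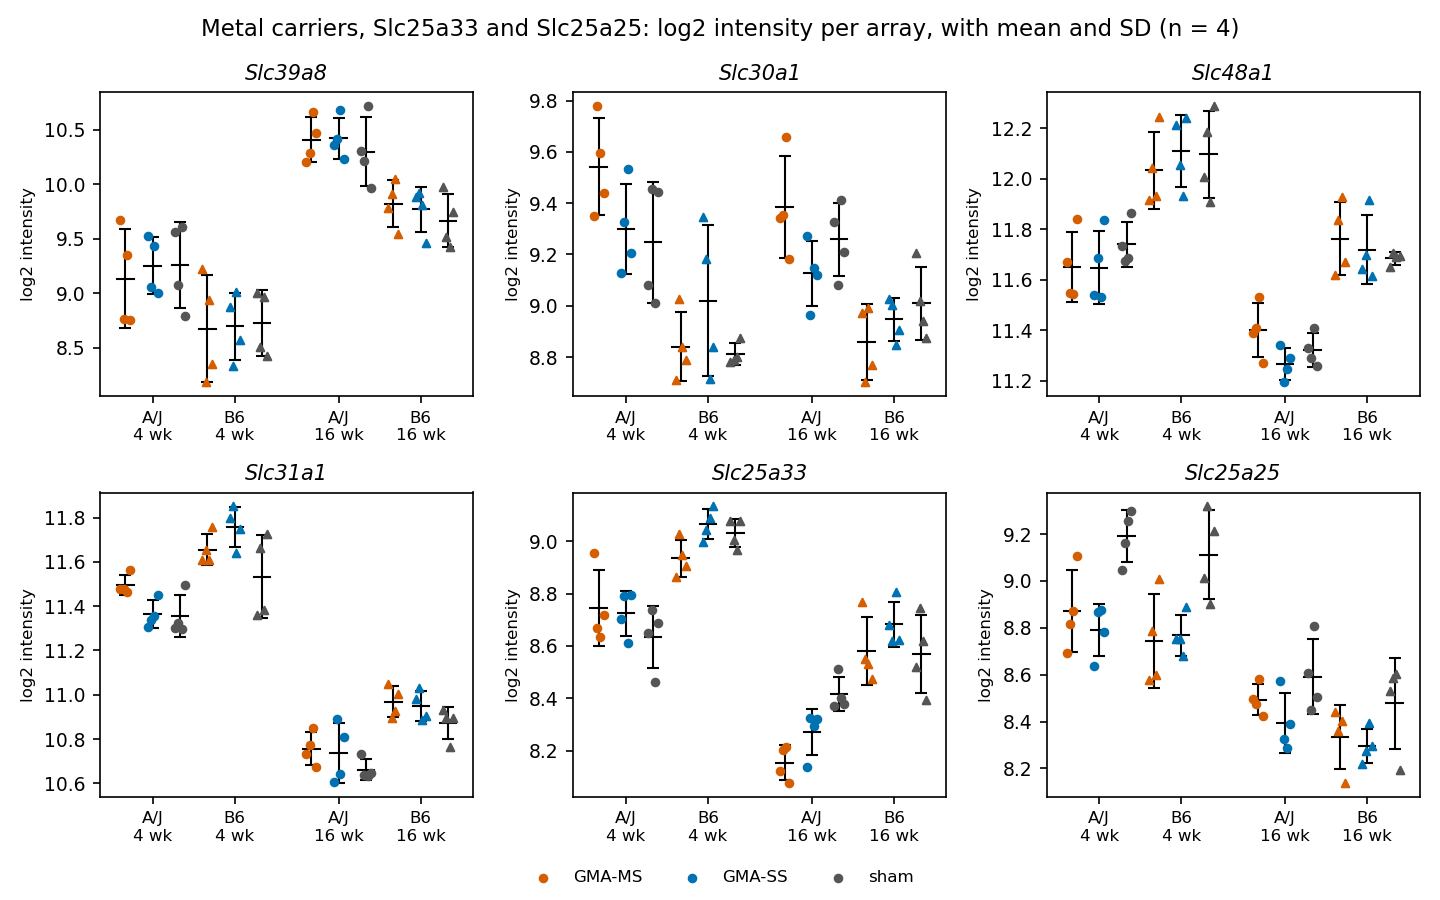
Normalized log2 intensity of Slc39a8, Slc30a1, Slc48a1, Slc31a1, Slc25a33 and Slc25a25 on each array (points), with mean and SD, by strain, time and exposure. Strains separate for Slc48a1 at both times, and the Slc25a25 means of both fume groups lie below the sham mean in each strain at 4 weeks, without a call.

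Markers of other cells moved with the strain. Both alveolar macrophage markers that could be tested, Marco (1.17 and 0.82) and Mrc1 (0.62 and 0.67), were higher in A/J, with a summed level of 12.23 to 12.30 in A/J and 11.50 to 11.65 in B6 sham lungs at 4 weeks and of 11.82 to 11.96 in A/J and 11.11 to 11.26 in B6 at 16 weeks. Both B cell markers were lower (Cd79a by -1.03 and -1.04), the endothelial markers Pecam1 and Cldn5 were higher at 16 weeks, and Pdpn of alveolar type 1 cells was higher at both times. Of 5 alveolar type 2 markers Sftpa1 was lower at both times and Lamp3 at 4 weeks (-0.47). Of 4 cardiac muscle markers Actc1 was lower at both times (-0.96 and -1.18) and Myl7 higher at 4 weeks (0.58), and the stomach marker Tff2 was lower at 4 weeks (-1.88). No marker of neutrophils, ciliated, club or T cells was called. The squamous epithelium markers ranged widely inside each group, with a summed level of 10.1 to 16.4 in A/J and 10.1 to 16.0 in B6 sham lungs at 4 weeks. The part of cell composition in the Slc differences was not tested. A probe that matches the transcript of 1 strain less well and a lower transcript level cannot be told apart either.

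Proteins that work with solute carriers were read from a separate list. Emb, or embigin, a chaperone of the monocarboxylate carriers, had 7.64 ± 0.10 in A/J and 13.2 ± 0.24 in B6 at 4 weeks, and 7.49 ± 0.10 in A/J and 13.2 ± 0.0083 in B6 at 16 weeks. It was not well above background on any A/J sham array and was at least 43.5-fold and at least 46.3-fold lower in A/J (adjusted p = 4.82e-20 and 2.58e-26). Its counterpart Bsg (0.03 and 0.20) and Nptn (-0.09 and -0.15) were not called, and the scaffold Slc9a3r1 was lower (-0.34 and -0.30). Thus 2 of 5 chaperones and scaffolds were lower at both times (7.91% of all probes were). Of the 4 kinases that regulate the cation chloride cotransporters, Oxsr1 was lower at both times (-0.37 and -0.48) and Wnk1 was higher at 16 weeks (0.24). Of 7 sodium pump subunits and regulators Fxyd3 was lower at 4 weeks (-0.52) and none was called at 16 weeks, and of 4 organic anion carriers of the Slco family Slco4a1 was higher at 16 weeks (0.18).

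The same strain gap was then read in the arrays of fume-treated mice. At 4 weeks 39 of 171 Slc probes were called between GMA-MS lungs of A/J and B6 (21.1% of all probes were) and 30 between GMA-SS lungs (18.8% of all probes). At 16 weeks the counts were 53 (25.2% of all probes) and 49 (26.4%). All 38 probes called in sham lungs at 4 weeks had the same sign in both sets of fume arrays. Over all probes 2075 (GMA-MS) and 2101 (GMA-SS) of the 2117 sham calls had. In GMA-MS lungs 25 of the 38 were called again in that direction (65.8%, against 75.5% of all probes called in sham lungs). In GMA-SS lungs 24 were (63.2%, against 76.5%). Of the 50 called at 16 weeks, 48 and 50 had the same sign, against 3062 and 3132 of 3186 over all probes. Of the 50, 37 (74%, against 67.2% of all probes) and 39 (78%, against 74.3%) were called again. In all 6 gaps 11 of 163 Slc probes were called in 1 direction (6.75%, against 10.3% of all probes). Slc1a4 (0.68 to 0.83), Slc7a8, Slc27a6, Slc35a1 (0.30 to 0.47), Slc35f3 and Slc52a3 were higher in A/J, and Slc25a47 (-1.12 to -0.80), Slc35a5, Slc38a5, Slc38a9 and Slc48a1 (-0.46 to -0.36) were lower. Slc7a8 and Slc27a6 were not well above background in B6 sham lungs, and the detection filter could be passed through A/J arrays alone. Slc4a1, with the largest sham gap, was higher in A/J in all 6 but called in 5, and its gap ran from 0.49 to 1.18.

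The remaining comparisons asked whether a fume changed Slc expression within a strain. None of 171 Slc probes was called in any of the 8 comparisons with sham (limma), in which 0 to 0.404% of all probes were called. At 4 weeks the shares of all probes were 0.12% (GMA-MS) and 0.249% (GMA-SS) in A/J and 0.0516% (GMA-MS) and 0.0602% (GMA-SS) in B6, and at 16 weeks 0.0168% and 0.404% in A/J and 0.16% and 0% in B6. An unadjusted p under 0.05 was reached in A/J at 4 weeks by 12 Slc probes with GMA-MS (7.11% of all probes) and 9 with GMA-SS (5.2%), and in B6 by 6 (3.79%) and 4 (3.63%). At 16 weeks it was reached in A/J by 16 with GMA-MS (8.1% of all probes) and 6 with GMA-SS (6.39%), and in B6 by 15 (9.63%) and 7 (4.01%). In all this was 75 of 1368 tests (5.48%), against 5634 of 94020 over all probes (5.99%). The differences ran from -0.51, for Slc4a1 with GMA-SS in A/J at 4 weeks (adjusted p = 0.843), to 0.43, for Slc10a6 with GMA-SS in B6 at 4 weeks.

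These comparisons bounded most measured differences closely. The offset compresses the differences of dim probes towards 0, so for those probes the interval bounds the measured difference and not the change in transcript level. The 95% interval of the difference lay inside 1.5-fold in both directions for 163 to 169 of the 171 Slc probes in each comparison (95.3% to 98.8%), with a median half-width of 0.20 at 4 weeks and 0.15 at 16 weeks. For Slc30a1 GMA-MS gave 0.29 in A/J (adjusted p = 0.653) and 0.03 in B6, and GMA-SS gave 0.05 and 0.21 (A/J, then B6), at 4 weeks. The brighter Slc39a8 probe lay between -0.13 and 0.16 in the 8 comparisons, and Slc48a1 between -0.09 and 0.08. All family 39 probes, the dimmer Slc39a8 probe among them, lay between -0.13 and 0.30. For that dimmer probe the strain difference in the effect of GMA-MS at 4 weeks was 0.33 (SE 0.29) and was not called. The 2 carriers with a metal response element shown above were thus not called after either fume at either time.

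**Figure D5:**
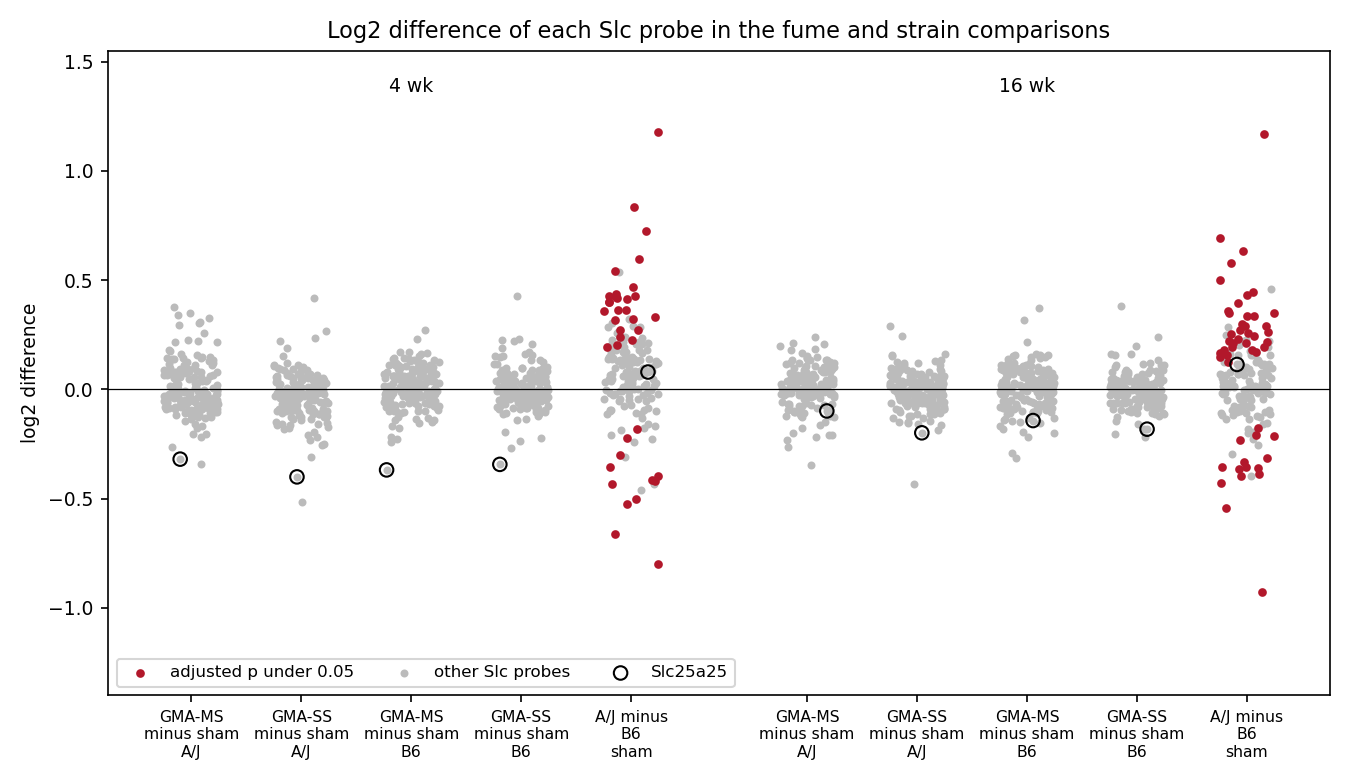
Log2 difference of each Slc probe for GMA-MS and GMA-SS minus sham in A/J and in B6, and for A/J minus B6 in sham lungs, at 4 weeks (left) and 16 weeks (right); red points had an adjusted p under 0.05 and open circles mark Slc25a25. The fume columns hold no red point and stay between -0.51 and 0.43, against -0.93 to 1.18 in the strain columns.

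Slc25a25, a calcium-regulated carrier that exchanges ATP-magnesium for phosphate across the inner mitochondrial membrane, had the smallest unadjusted p at 4 weeks. In A/J it had 8.69, 8.82, 8.87 and 9.11 with GMA-MS and 8.64, 8.87, 8.88 and 8.78 with GMA-SS, against 9.05, 9.16, 9.26 and 9.30 in sham lungs. In B6 it had 8.58, 8.79, 8.60 and 9.01 with GMA-MS and 8.75, 8.75, 8.68 and 8.89 with GMA-SS, against 9.01, 9.32, 8.90 and 9.21 in sham lungs. In both strains the GMA-SS arrays lay below every sham array, and the GMA-MS arrays overlapped sham. The differences in A/J were -0.32 with GMA-MS and -0.40 with GMA-SS (SE 0.11 each, adjusted p = 0.386 and 0.175), and in B6 -0.37 and -0.34 (adjusted p = 0.530 and 0.833), the fumes of a strain being set against the same sham arrays. Each fume array was below the sham array of its beadchip on 4 of 4 beadchips in all 4 comparisons. With the beadchip as a block the adjusted p was 0.0523 with GMA-MS and 0.0154 with GMA-SS in A/J, where 0.946% and 0.748% of all probes were called, and 0.0409 and 0.104 in B6, where 0.361% and 0.155% were. At 16 weeks the differences were -0.10 to -0.20 and none was called.

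The beadchip block gave 2 further calls, Slc44a3 with GMA-MS in A/J at 4 weeks (0.31, adjusted p = 0.0390, where 0.946% of all probes were called) and Slc35e2 with GMA-MS in B6 at 16 weeks (-0.31, adjusted p = 0.00605, where 0.648% were). The other probes among the 5 smallest unadjusted p of the 8 comparisons were Slc25a32, a mitochondrial folate and flavin carrier, with GMA-SS in B6 at 16 weeks (-0.20, adjusted p = 0.769), Slc6a19, a neutral amino acid carrier, with GMA-MS in B6 at 16 weeks (-0.18, adjusted p = 0.141), and Slc16a9 (0.24) and Slc25a33 (-0.26) with GMA-MS in A/J at 16 weeks (adjusted p = 0.237 each). None of these passed the test.

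No Slc probe was called for a strain difference in the effect of a fume (limma, 0.0258% and 0% of all probes for GMA-MS and GMA-SS at 4 weeks, 0.101% and 0.0421% at 16 weeks), with 6 and 1 at an unadjusted p under 0.05 at 4 weeks (4.55% and 1.81% of all probes) and 13 and 3 at 16 weeks (7.13% and 3.58%). The largest of these differences in effect, -0.68 for Slc4a1 with GMA-SS at 16 weeks, was the only 1 over 1.5-fold. None was called between the fumes either (0% of all probes in either strain at 4 weeks, 0.185% in A/J and 0.0758% in B6 at 16 weeks), with 7 and 4 at an unadjusted p under 0.05 in A/J and B6 at 4 weeks (6.02% and 3.02% of all probes) and 6 and 9 at 16 weeks (4.99% and 5.03%). The nearest was Slc6a19 for GMA-SS minus GMA-MS in B6 at 16 weeks (0.22, SE 0.05, adjusted p = 0.122), which was called without B6 GMA-MS array 1 (0.25, adjusted p = 0.0459).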

How the data were processed

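Biotin-labelled RNA of whole lung was hybridised to Illumina MouseRef-8 v1.1 arrays. The authors deposited bead-summary intensity, number of beads and detection p-value per probe, and log2 values they had made with the lumi package (force-positive background correction, variance-stabilizing transformation, robust spline normalization within a time point). That transformation compresses dim probes. Here the intensities were corrected by normexp against background inferred from the detection p-values (offset 16), quantile normalized within a time point and put on the log2 scale (neqc). Probes with a detection p under 0.01 on at least 4 of 24 arrays were fitted over 6 groups with limma 3.58.1 in R 4.3.3, with Benjamini-Hochberg adjustment over all of them. The fit was run on simulated data with known differences and noise drawn independently for each array. That run left out the correlation within beadchips given below, so it cannot show how the fit behaves with it.

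Each beadchip held 1 array of every group, and its number is the replicate number in the labels. Deviations from the group means correlated at 0.261 to 0.424 within beadchips at 4 weeks and at 0.0552 to 0.212 at 16 weeks, so the numbers pair the arrays, and the beadchip block was fitted as well. Deposited log2 values, other scalings and filters, 1 probe per gene and left-out arrays were the other alternatives. Beads numbered 34 to 36 per probe in the median, and 4 arrays per group limit the precision.

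Probes were named from the platform annotation (20984 with 1 symbol, 3628 unnamed). The genes named were the 12 largest strain gaps called at both times, the 5 smallest unadjusted p over the fume comparisons, the largest gap of each family of 4 or more probes and carriers of metals and of lung cell types. Others are named in describing their class, after their values were seen. Members, lists and tests were chosen with earlier results of these data known.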

Additional observations from a re-analysis of the deposited data

Results flagged for a closer look

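Single arrays stood apart from the other 3 of their sham group, with a gap to the next array, as a share of the group's range, above Dixon's critical value, in 9 of 122 groups of named genes (7.38%). Chance alone gives about 1 group in 20. The Slc4a1 value of A/J array 1 at 4 weeks was 10.12, with the others at 10.97 to 11.08 (ratio 0.8815). Slc31a1 had a high array in A/J at each time, array 4 at 4 weeks (11.50 against 11.30 to 11.33, ratio 0.8526) and array 1 at 16 weeks (10.73 against 10.63 to 10.65, ratio 0.8666). Slc38a2 was low on B6 array 4 at 16 weeks (12.30 against 12.49 to 12.51, ratio 0.9001). Slc12a8 was high on A/J array 4 at 16 weeks (8.17 against 7.77 to 7.83, ratio 0.8331). At 16 weeks Slc44a4 was low on B6 array 1 (ratio 0.8881), Slc6a19 was high on B6 array 1 (ratio 0.9035) and Slc2a1 was high on B6 array 3 (ratio 0.8849). Slc5a12 was high on A/J array 3 at 4 weeks (ratio 0.8593), where it was not well above background.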

How the results depend on the processing

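Of 1144 values of named Slc probes under alternatives, 1048 kept their sign and side of the threshold, 40 lost a call, 29 gained one and 27 changed sign. Of 37 named calls, 16 held in every setting, 26 under cyclic loess and 20 under median scaling. The 4 weeks count of strain calls, 38, was 16 with cyclic loess, 11 with median scaling, 66 with the beadchip block and 79 averaged over exposures, and 27 to 33 with 1 array left out. The 16 weeks count, 50, was 30 with cyclic loess, 29 with median scaling and 92 averaged over exposures, and 41 to 48 with 1 array left out. The block moved no other count of strain calls by over 1.5 times. In the fume comparisons 1 probe was called in place of 0 with the block (GMA-MS in A/J and in B6 and GMA-SS in A/J at 4 weeks, GMA-MS in B6 at 16 weeks) and with no filter on detection (Slc7a2, GMA-SS in A/J at 4 weeks). Between the fumes in B6 at 16 weeks 1 was called with no background correction, no filter and a variance trend, and 0 to 1 with 1 array left out. Under median scaling at 16 weeks the sign changed for Slc6a4 (-0.26), Slc7a8 (-0.40), Slc12a8 (-0.53), Slc23a3 (-0.036), Slc27a6 (-0.73), a Slc39a8 probe (-0.50) and a Slc31a1 probe (-0.51, and -0.071 with cyclic loess). Averaging over exposures gave that Slc31a1 probe 0.012 at 4 weeks and -0.00079 at 16 weeks, and Slc34a2 0.12 at 16 weeks. With 1 array left out, differences near 0 changed sign for Slc25a28 at 4 weeks (-0.11 to 0.057), Slc31a1 at 16 weeks (-0.044 to 0.068), Slc34a2 at 4 weeks (-0.050 to 0.093) and 16 weeks (-0.087 to 0.059) and Slc7a2 at 16 weeks (-0.10 to 0.010). The causes were not tested. Deposited values could not be used for the change of the gap between times. Dim probes, near 7.57 on this scale, have differences compressed towards 0 by the offset.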
